A study of Sus scrofa with 12 samples.

Results

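The interaction between dietary fiber and N-carbamylglutamate (NCG) was examined in 12 RNA-seq libraries of the endometrium, the lining of the uterus, of sows. It asks whether NCG acted alike under both fiber levels and is computed as (H + N minus H − N) minus (L + N minus L − N), on the log2 scale and from group means of 3 libraries each. All 12 libraries of the series entered it, and membership followed the diet group alone, with no measured value. Of the 20674 genes in the table, 15351 had enough reads to be tested, and 5963 of these carry a KEGG pathway. The sows were multiparous Landrace × Yorkshire animals fed from breeding over the 114 days of gestation. L − N received a diet with 3.73% crude fiber, which the study took as its basal control, and L + N the same diet with 0.05% NCG. H − N received 7.46% crude fiber, for which soybean bran and beet pulp replaced part of the corn, and H + N the same diet with 0.05% NCG. Fiber and the ingredients that carried it therefore changed together and cannot be told apart.

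NCG is an analog of N-acetylglutamate, the activator of carbamoyl phosphate synthetase 1, and is fed to raise the animal's own synthesis of arginine. Dietary fiber is fermented by gut microbes into short-chain fatty acids. The endometrium of late gestation holds glands and a luminal epithelium, a collagen-rich stroma, vessels, and macrophages that take up and degrade material in lysosomes. The question of the comparison is whether the treatments add up. If they did so on the log2 scale, H + N would lie at the level of L − N plus the effect of NCG alone plus the effect of fiber alone. A positive interaction places H + N above that level and a negative one below it. All 4 groups enter the interaction with equal weight, so its size does not say which group departs. For that, each gene was assigned to the group whose removal left the smallest range among the other three group means, here called the group that stands apart.

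The libraries held 14369781 to 19309724 counts, and replicates of every group differed by more than counting error. In the first principal component, with 26.7% of the variance, L − N replicate 2 (−67.2) and replicate 3 (−65.5) lay far from L − N replicate 1 (−22.6), and the other 9 libraries lay between 1.06 and 28.2. The count of interaction genes is therefore also given without replicate 1 and without H − N replicate 3, which stood apart in its markers. Where leaving out 1 library moved the median of a pathway by over 1.5 times or turned its sign, the lowest or highest such value is given. Uterine identity genes such as PGR, ESR1 and HOXA10 were detected in every library, with a summed level of 755 to 943 CPM (counts scaled per library size) in L − N and of 1189 to 2148 in the other groups. Of the 8 trophoblast markers, CDX2 and CYP19A1 were at 0 in all libraries, whereas GATA3, ELF5, TFAP2C and TEAD4 were above 0 in every library. The list summed to 18.0 to 34.1 CPM.

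Marker lists of cell types differed between libraries and groups. The 8 macrophage markers (among them CD68, CD163, CSF1R and C1QA) summed to 1031, 2694 and 2769 CPM in L − N, 1199, 1182 and 849.9 in L + N, 720.4, 793 and 531 in H − N, and 1023, 1077 and 845 in H + N. L − N replicates 2 and 3 stood above all other libraries, whereas L − N replicate 1 lay inside the range of L + N and H + N. The interaction was above 0 at an unadjusted p under 0.05 for 7 of the 8 macrophage markers. Over all genes tested, 7.48% were above 0 at this p and 5.33% below. Smooth muscle markers (8 genes, among them ACTA2, MYH11 and DES) summed to 5611, 1690.2 and 2148 CPM in L − N, 1192, 1333 and 1099 in L + N, 895, 1656 and 1668 in H − N, and 1534, 1607 and 1586 in H + N. L − N replicate 1 was the high library here, and it was also high in MYL9. Of 8 markers of luminal and glandular epithelium 7 were analysed, and these summed to 1356, 1513 and 1007 CPM in L − N, 1424, 1493 and 1494 in L + N, 1826, 1500.2 and 2308 in H − N, and 1185, 1302 and 1208 in H + N, with H − N replicate 3 highest. Neutrophil markers reached 554 CPM in H − N replicate 3 and 277 in L + N replicate 2, against 7.91 to 119 in the other libraries. Red cell markers reached 757 and 517 CPM in L − N replicates 1 and 3 and 295 and 214 in H + N replicates 2 and 3, against 28.1 to 83.7 elsewhere. The interaction was below 0 at an unadjusted p under 0.05 for 4 of 6 tested neutrophil markers and 4 of 7 tested epithelial markers, and above 0 for 4 of 8 smooth muscle, 3 of 4 tested red cell and 2 of 8 endothelial markers. The stroma list had 1 gene in each direction. The mesothelial list had 1 of 4 tested genes below 0, and lists of ciliated epithelium, T and NK cells, B and plasma cells, and trophoblast had none. In bulk tissue, fewer cells of a type and less RNA per cell cannot be told apart, and the part of these lists in the results that follow was not tested unless a value is given.

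**Figure D1:**
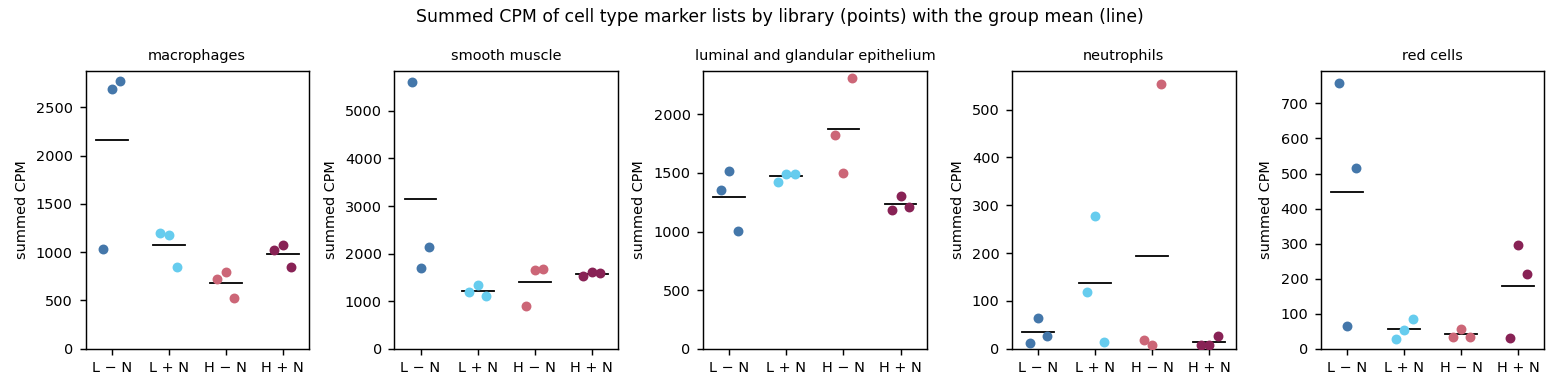
Summed CPM (vertical axis, from 0) of 5 lists of cell type markers in each library, by diet group (horizontal axis), with points for libraries and a line for the group mean. Macrophage markers are high in L − N replicates 2 and 3 (2694 and 2769 CPM), smooth muscle markers in L − N replicate 1 (5611 CPM) and neutrophil markers in H − N replicate 3 (554 CPM).

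No gene passed the thresholds for the interaction (edgeR quasi-likelihood test, adjusted p under 0.05 and an absolute log2 value above 1, 0% of 15351 genes), and the smallest adjusted p was 0.18. At an unadjusted p under 0.05 there were 1967 genes, 1149 with a positive interaction (7.48% of the genes tested) and 818 with a negative one (5.33%). DESeq2 called 184 genes and limma-voom with quality weights 134, of which 85 were shared (46.2% and 63.4% of each list). The interaction was also less precise than its parts, with a median standard error of 0.313 against 0.222 for the effect of NCG on the low-fiber diet. Within the sum of squares over all genes, fiber held 16.2%, NCG 15.5%, the interaction 10.96%, and the spread within groups 57.2%.

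The call depended on L − N replicate 1. Without this library the same edgeR test called 346 genes (261 positive, 85 negative), with a smallest adjusted p of 0.0025, and without it and H − N replicate 3 together 347. Leaving out any other single library gave 0 or, for H − N replicate 3, 1. Of the 346 genes, 106 were also called by DESeq2 on all 12 libraries and 118 by limma-voom. All 3 analyses called 78 genes, 59 positive and 19 negative. L − N stood apart in 73 of the 78. Its share was 44.3% of all genes tested and 75.0% of those with an unadjusted interaction p under 0.05. The 78 were selected by the interaction, and 1 of the 3 analyses left out an L − N library, so this is no independent support. The 78 genes make up 0.508% of those tested. They held 7 of the 119 tested genes of the lysosome pathway, 4 of 179 of focal adhesion, 2 of 127 of phagosome and 2 of 64 of complement and coagulation, and none of oxidative phosphorylation, ribosome, cell cycle or homologous recombination. Of the 8 genes with the smallest p in each direction, 7 of the positive and 5 of the negative were among the 78. The same libraries chose these genes and called the 78, so this overlap is no independent support.

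The single-treatment effects differed in number by the background they were measured on. NCG moved 613 genes past the thresholds on the low-fiber diet (510 up, 103 down, 3.99% of genes) and 0 on the high-fiber diet (0%, 1331 at an unadjusted p under 0.05). Fiber moved 446 genes without NCG (137 up, 309 down, 2.91%) and 0 with NCG (0%, 719 at an unadjusted p under 0.05). DESeq2 called 25 genes for NCG on the high-fiber diet and 2 for fiber with NCG. These counts rested on few libraries, with 143 genes for NCG on low fiber without L − N replicate 3 and 0 for fiber without NCG once H − N replicate 1 was left out. H + N against L − N gave 549 genes. These counts share groups with one another, and a count in one comparison and not in the other is not a test of the difference, which is the interaction itself.

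L − N was the group that stood apart most often. Over all genes tested it was apart in 44.3%, L + N in 22.5%, H − N in 21.0% and H + N in 12.1%. Among the 1967 genes with an unadjusted interaction p under 0.05, L − N was apart in 1475 (75.0%), H − N in 267, L + N in 160 and H + N in 65. The test of L − N against the mean of the other 3 groups called 777 genes (375 higher, 402 lower, 5.06%, or 128 without L − N replicate 3), whereas the same test called 0 genes for L + N, for H − N and for H + N (2593, 2415 and 1460 at an unadjusted p under 0.05). DESeq2 called 122, 190 and 13 genes for these groups. Of 231 KEGG pathways with at least 15 tested genes, L − N was the group most often apart in 208, L + N in 16, H − N in 7 and H + N in 0. Ties were counted for the first group in this order, so the 208 include pathways in which L − N only tied. The median interaction was positive in 174 of the 231 pathways, beside a median of −0.0065 over all genes.

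**Figure D2:**
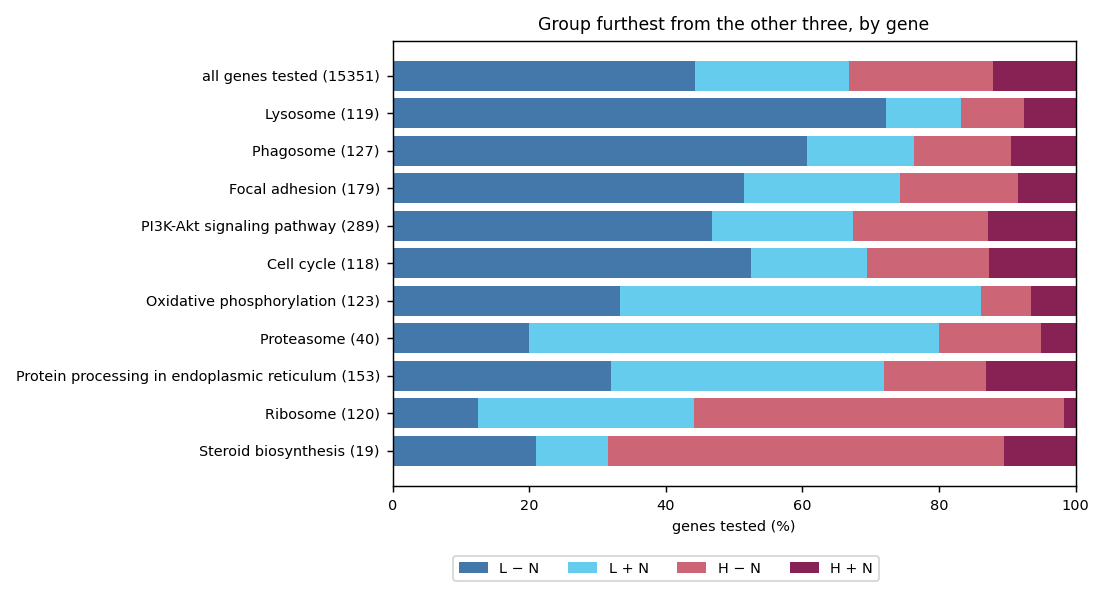
Share of tested genes (horizontal axis, percent) in which each diet group lies furthest from the other three, for all genes and 10 pathways with the number of tested genes in brackets. L − N takes 44.3% of all genes and most of lysosome (72.3%), L + N most of oxidative phosphorylation (52.8%) and proteasome (24 of 40 genes), and H − N most of ribosome (54.2%).

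The 8 named genes with the smallest p and a positive interaction all had L − N apart and high, and all 8 passed the thresholds when L − N replicate 1 was left out. Being chosen by p, they were likely to pass on most of the same libraries, so this is no independent support. They are NBL1, a secreted inhibitor of bone morphogenetic proteins, MAFF, a stress-responsive transcription factor, C1QTNF5, a secreted protein with a collagen domain, VCL, which links integrins to actin, RAB11FIP5, an endosome recycling factor, MYL9, the regulatory light chain of smooth muscle myosin, CTHRC1, a secreted protein of matrix remodeling, and TGFB1I1, a focal adhesion adaptor. NBL1 (chromosome 6, 78046084 to 78071609, plus strand, Sscrofa11.1) was measured at 212, 358 and 352 CPM in L − N, 112, 90.2 and 109 in L + N, 75.6, 85.5 and 73.2 in H − N, and 80.9, 124 and 91.4 in H + N. The lowest L − N library lay above the highest of the other 9. NCG lowered it by itself (log2 −1.57, adjusted p = 0.0082) and so did fiber (log2 −1.97, adjusted p = 0.008), and adding both would have placed H + N at 26.3 CPM, against a measured mean of 98.8. The interaction was 1.91 ± 0.299 (SE, adjusted p = 0.18), or 2.12 without L − N replicate 1 (edgeR, adjusted p = 0.005). MAFF (chromosome 5, 9683651 to 9696128, minus strand) followed the same order, at 26.2, 34.9 and 40.2 CPM in L − N, 11.9, 9.20 and 10.5 in L + N, 7.461, 8.88 and 10.8 in H − N, and 13.0, 11.95 and 8.52 in H + N. Its L − N libraries again did not overlap with any other, and the interaction was 1.98 ± 0.318 (adjusted p = 0.18, or 0.0093 without L − N replicate 1). C1QTNF5 (chromosome 9, 46548175 to 46550146, minus strand) was at 54.3, 56.4 and 72.2 CPM in L − N, 21.0, 18.4 and 24.9 in L + N, 17.7, 23.6 and 28.9 in H − N, and 25.4, 31.6 and 24.5 in H + N. Its measured H + N mean was 3.304 times the level given by adding the single effects.

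VCL (chromosome 14, 76700143 to 76811875, plus strand) was measured at 512, 587 and 570.1 CPM in L − N, 316, 328 and 289 in L + N, 287, 326 and 318 in H − N, and 367, 315 and 409.9 in H + N. Again L − N was above all other libraries, also in replicate 1, and the interaction was 1.07 ± 0.175 (adjusted p = 0.18, or 0.013 without L − N replicate 1). VCL overlaps a gene known only by a LOC number, and the strand used for counting is not stated, so reads of the pair cannot be told apart. MYL9 (chromosome 17, 39788165 to 39795240, plus strand) was at 363, 305 and 278 CPM in L − N, 114.1, 128 and 113 in L + N, 74.3, 143 and 135 in H − N, and 150.1, 166 and 136 in H + N. The MYL9 interaction was 1.78 ± 0.301, and L − N replicate 1, which is high in smooth muscle markers, was also its highest library. RAB11FIP5 (chromosome 3, 69656660 to 69699542, plus strand) lay at 33.5 to 39.2 CPM in L − N and at 18.2 to 24.3 in the other groups. CTHRC1 (chromosome 4, 33759541 to 33771625, minus strand) had the largest value of the 8, 3.22 ± 0.556 (adjusted p = 0.18), with 12.5, 35.9 and 17.5 CPM in L − N, 5.34, 5.65 and 4.45 in L + N, 1.09, 0.902 and 1.24 in H − N, and 1.91, 3.31 and 1.84 in H + N. NCG was followed by lower values on the low-fiber diet and higher values on the high-fiber diet, with no overlap between libraries in either pair. TGFB1I1 (chromosome 3, 17093275 to 17099204, minus strand) crossed in the same way, at 78.4, 64.5 and 71.5 CPM in L − N, 40.2, 36.0 and 40.0 in L + N, 41.9, 43.7 and 42.0 in H − N, and 46.2, 44.1 and 63.4 in H + N.

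**Figure D3:**
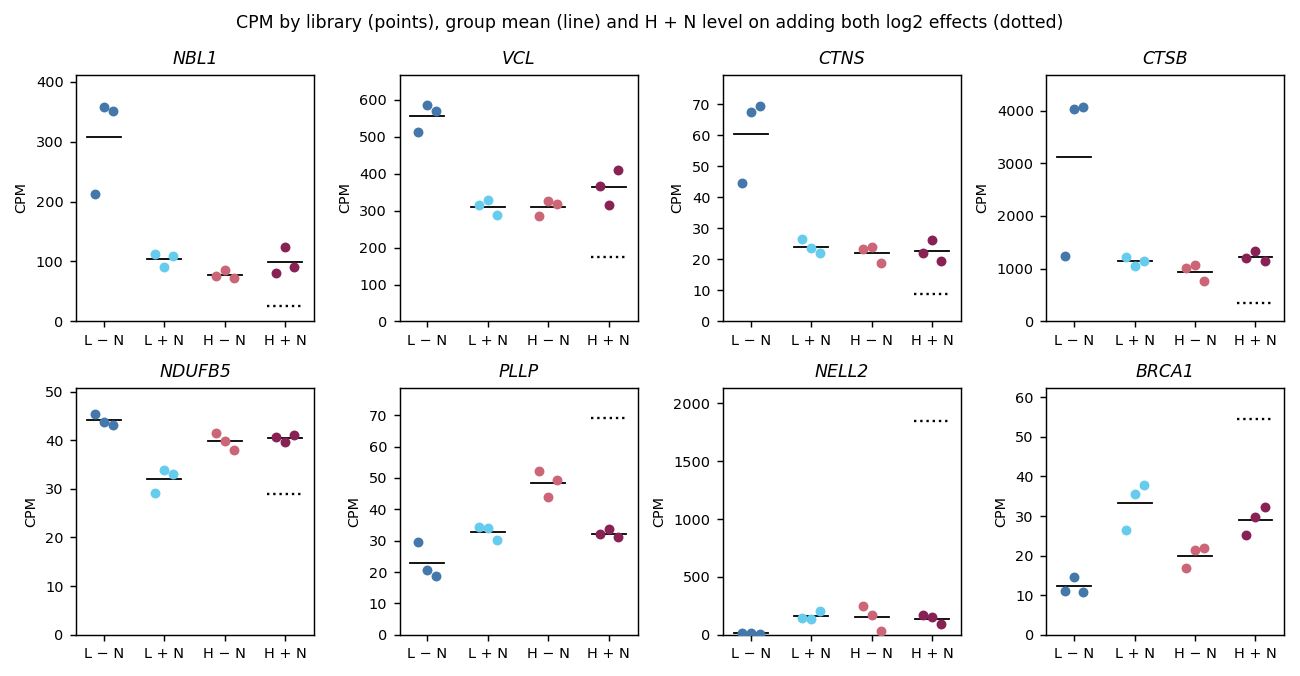
CPM (vertical axis, from 0) of 8 genes in each library, by diet group (horizontal axis). Points are libraries, solid lines group means, and the dotted line is the H + N level expected from adding the log2 effects of NCG and fiber alone. NBL1, VCL, CTNS and CTSB lie above that line in H + N with L − N apart, NDUFB5 above it with L + N apart, and PLLP, NELL2 and BRCA1 lie below it.

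Of the 8 named genes with a negative interaction, which were also chosen by p in these data, 6 had L − N apart and low. H − N stood apart in PLLP and SERPINA5. Without L − N replicate 1 the thresholds were passed by 6 of the 8, with TENM1 (adjusted p = 0.058) and SERPINA5 (0.055) the exceptions, and without H − N replicate 3 by NELL2 alone (0.037). NELL2, a secreted glycoprotein with epidermal growth factor-like repeats (chromosome 5, 75505092 to 75837324, minus strand), was measured at 17.6, 14.6 and 8.06 CPM in L − N, 147, 136 and 208 in L + N, 249.9, 173 and 31.4 in H − N, and 168, 157 and 96.4 in H + N. NCG raised it on the low-fiber diet (log2 3.61, adjusted p = 0.009), and H + N stayed at a mean of 140.4 CPM where the sum of single effects would give 1848 (interaction −3.72 ± 0.811, adjusted p = 0.25). H − N replicate 3 lay far below the other H − N libraries. BPI, a protein that binds bacterial endotoxin (chromosome 17, 41344878 to 41392103, plus strand), was at 1.08, 0.941 and 0.806 CPM in L − N, 9.17, 9.43 and 6.998 in L + N, 5.18, 7.77 and 2.76 in H − N, and 2.90, 7.22 and 2.698 in H + N. Every library outside L − N exceeded every L − N library. TSPAN8, a tetraspanin of epithelial cells (chromosome 5, 35210744 to 35482788, minus strand), stayed under 1 CPM in L − N (0.382 to 0.815) and lay at 2.93 to 5.87 elsewhere, with an interaction of −2.80 ± 0.544. TSPAN8 overlaps LGR5 and a gene with a LOC number, so their reads cannot be told apart either.

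RASGRP1, an activator of Ras (chromosome 1, 132702495 to 132786536, plus strand, overlapping FAM98B), was at 22.0, 35.6 and 22.3 CPM in L − N, 62.0, 68.1 and 60.4 in L + N, 66.4, 68.4 and 67.4 in H − N, and 67.3, 41.9 and 66.4 in H + N. L − N was low in all 3 libraries, and H + N replicate 2 lay nearest to it. DNAAF4, needed to assemble the dynein arms of cilia (chromosome 1, 116331217 to 116431673, plus strand), lay at 2.696 to 3.31 CPM in L − N and at 4.90 to 8.11 in the others. TENM1, a teneurin (chromosome X, 101853340 to 102641299, minus strand), was under 1 CPM in L − N (0.446 to 0.941) and at 2.59 to 7.52 in the others. PLLP, a membrane proteolipid of epithelia (chromosome 6, 19214037 to 19241251, minus strand, overlapping ARL2BP), was at 29.7, 20.6 and 18.9 CPM in L − N, 34.3, 33.9 and 30.3 in L + N, 52.2, 43.9 and 49.4 in H − N, and 32.2, 33.6 and 31.1 in H + N. L − N was lowest and H − N highest, and L + N and H + N overlapped between them, above L − N and below H − N (interaction −1.097 ± 0.227, adjusted p = 0.25). SERPINA5, a serine protease inhibitor (chromosome 7, 115799414 to 115810825, plus strand), was at 0.0637, 0.0627 and 0 CPM in L − N, 0.146, 0.349 and 0.719 in L + N, 1.92, 1.04 and 1.52 in H − N, and 0.396, 0.217 and 0.613 in H + N. No L − N library held more than 3 counts, so its fitted interaction of −4.86 depends on the prior count and is no bound.

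The median lysosome gene lay above additivity, although no lysosome gene passed the thresholds for the interaction with all 12 libraries. Lysosomes degrade proteins, glycans and lipids with acid hydrolases, and their lumen is acidified by the vacuolar ATPase. Of 119 tested genes, 41 had a positive interaction at an unadjusted p under 0.05 and 2 a negative one (34.5% and 1.68%, beside 7.48% and 5.33% of all genes). L − N stood apart in 86 (72.3%, beside 44.3% of all genes). The median gene was lower with NCG alone (log2 −0.44) and with fiber alone (−0.43). The sum of the 2 effects had a median of −0.87, but H + N was only −0.46 from L − N, about as far as with either treatment alone. NCG on the high-fiber diet had a median of 0.063. The median interaction was 0.45.

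By library, the median lysosome gene lay at 0.018, 0.55 and 0.36 in L − N, −0.037, −0.14 and −0.10 in L + N, −0.13, −0.11 and −0.12 in H − N, and −0.14, −0.037 and −0.15 in H + N, as log2 CPM relative to the gene's mean. All 3 L − N libraries were above the other 9, but replicate 1 only by a small margin. Past the thresholds, fiber without NCG lowered 19 of the 119 lysosome genes, beside 309 of all 15351 genes. NCG on low fiber lowered 7, beside 103 of all genes. Neither raised any lysosome gene, beside 137 and 510 of all genes. Once H − N replicate 1 was left out, 0 genes of all those tested passed for fiber without NCG. The median interaction was 0.59 when L − N replicate 1 was left out, and 0.30 when L − N replicate 2 was. Without L − N replicate 1, 26 of the 119 genes passed the thresholds for the interaction, beside 346 of all 15351.

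The lysosome genes split by role, a split made by symbol after the values were known. Cathepsins, the lysosomal proteases, had a median interaction of 1.096 over 13 genes, 6 of them at an unadjusted p under 0.05, and L − N apart in 12. The vacuolar ATPase subunits of the pathway had 0.47 over 10 genes, and the remaining hydrolases, activators and membrane proteins 0.58 over 72, with 32 positive and 0 negative at that p. Adaptor and coat proteins of vesicle traffic had 0.08 over 24 genes, with 1 positive and 2 negative. The difference between these groups of genes was not tested.

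**Figure D4:**
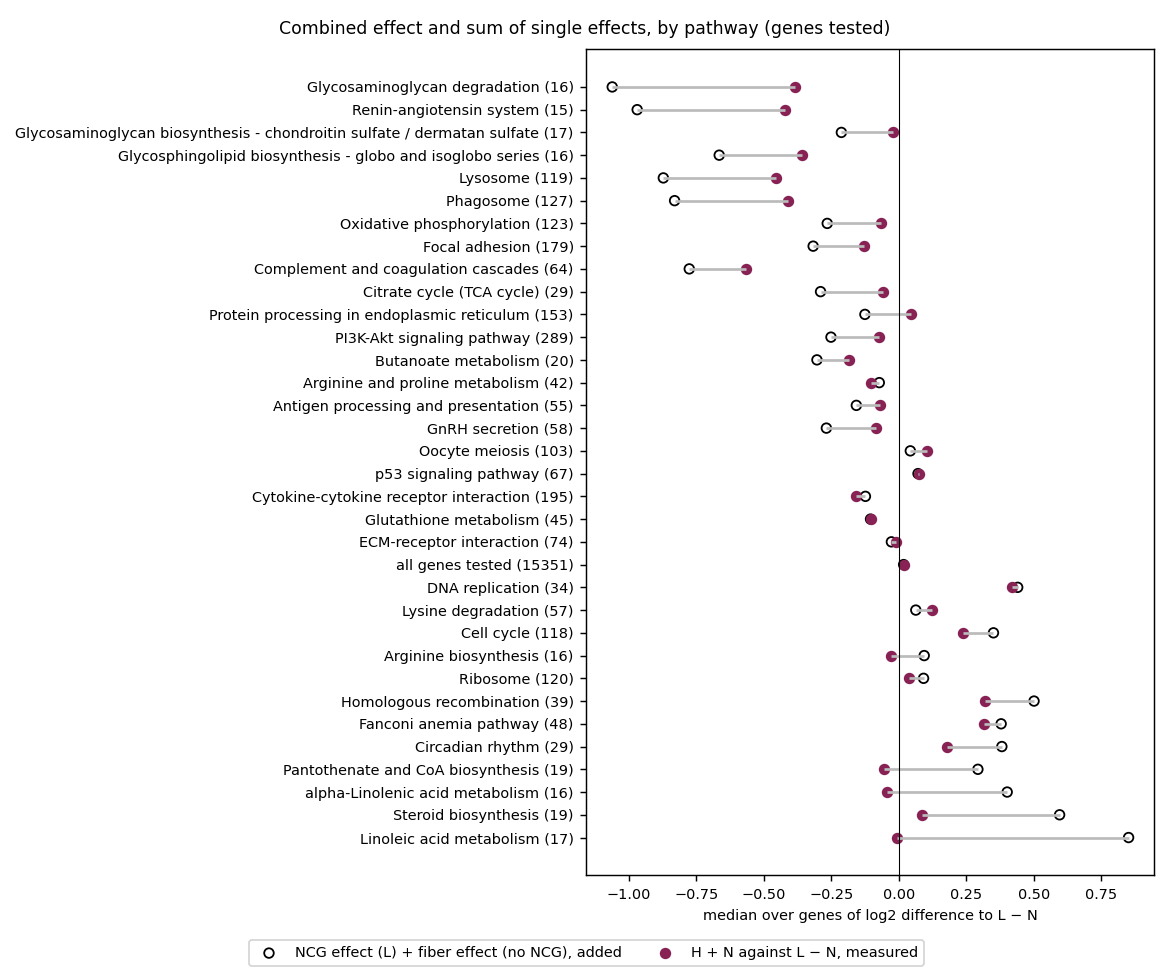
Median over the tested genes of each pathway (vertical axis, gene number in brackets) of the log2 difference from L − N (horizontal axis), as the sum of the NCG and fiber effects alone (open circles) and as measured in H + N (filled circles). For lysosome the sum is −0.87 and the measured value −0.46, for DNA replication 0.44 and 0.42, and for linoleic acid metabolism 0.85 and −0.0069.

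CTNS, the cystine exporter of the lysosome (chromosome 12, 49730741 to 49754362, plus strand, overlapping SHPK and TAX1BP3), was measured at 44.8, 67.5 and 69.3 CPM in L − N, 26.6, 23.5 and 21.9 in L + N, 23.2, 24.0 and 18.9 in H − N, and 22.2, 26.1 and 19.5 in H + N. L − N was above all other libraries, and the remaining 3 groups overlapped (interaction 1.37 ± 0.262, adjusted p = 0.21). NPC2, which hands cholesterol out of the lysosome (chromosome 7, 97730532 to 97740087, minus strand), was at 376, 612 and 731 CPM in L − N, 239, 252 and 182 in L + N, 129, 181 and 152 in H − N, and 189, 263 and 175 in H + N. Here too no library of another group reached L − N, and the interaction was 1.79 ± 0.351 (adjusted p = 0.21). CTSK, a collagen-degrading cathepsin (chromosome 4, 98389459 to 98404969, plus strand, overlapping ARNT), was at 1437, 4528 and 4536 CPM in L − N, 717, 765 and 902 in L + N, 282, 878 and 412 in H − N, and 698, 1214 and 490.0 in H + N. L − N replicates 2 and 3 were far above replicate 1, which was still above the other groups, and the interaction was 2.75 ± 0.708. CTSB, cathepsin B (chromosome 14, 15014139 to 15035081, minus strand), was at 1239.7, 4031 and 4071 CPM in L − N, 1231, 1059.8 and 1140.0 in L + N, 1014, 1066 and 758 in H − N, and 1199, 1331 and 1149.8 in H + N. L − N replicate 1 lay among the libraries of H + N, so the high level rested on the other two L − N libraries, which are also those high in macrophage markers. Its adjusted p was 0.26, and 0.0038 without L − N replicate 1. HEXA, a lysosomal hydrolase of gangliosides, lay at 218, 407 and 379 CPM in L − N, above all other libraries, with an interaction of 0.87 ± 0.280.

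The phagosome pathway shares members with the lysosome pathway, such as the vacuolar ATPase and several receptors. Of 127 tested genes, 38 were positive and 0 negative at an unadjusted p under 0.05 (29.9% and 0%, beside 7.48% and 5.33% of all genes). The median interaction was 0.43, and L − N was apart in 77 (60.6%, beside 44.3% of all genes). The sum of single effects was −0.83 and the measured difference of H + N from L − N −0.41. The library medians were −0.04, 0.45 and 0.38 in L − N, −0.0057, −0.10 and −0.19 in L + N, −0.18, −0.14 and −0.027 in H − N, and −0.08, −0.10 and −0.075 in H + N. L − N replicates 2 and 3 were high, and L − N replicate 1 was among the other groups. Leaving out L − N replicate 2 gave a median interaction of 0.28. Leaving out L − N replicate 1 gave 0.52, and 16 of the 127 genes then passed the thresholds, beside 346 of all 15351. CD14, a co-receptor for bacterial lipopolysaccharide on macrophages (chromosome 2, 142348036 to 142349686, minus strand), was at 22.7, 40.8 and 49.0 CPM in L − N, 15.3, 14.1 and 12.6 in L + N, 10, 15.2 and 13.0 in H − N, and 13.4, 17.2 and 14.7 in H + N. L − N was above all other libraries (interaction 1.67 ± 0.367, adjusted p = 0.25, or 0.0084 without L − N replicate 1). ITGB5, an integrin chain, lay at 286, 366 and 403 CPM in L − N and at 141 to 209.8 in the others. ACTG1, cytoplasmic actin, lay at 2244, 2675 and 2606 CPM in L − N, and H + N replicate 3 nearly reached the lowest of them.

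Small pathways of glycan breakdown and peptide processing had the largest medians and were chosen for them. Glycosaminoglycan degradation had 0.62 over 16 genes (7 positive, 0 negative at an unadjusted p under 0.05), most of which are also lysosome genes. HYAL2, a hyaluronidase (overlapping TUSC2), lay at 51.5, 60.1 and 65.1 CPM in L − N and at 34.3, 30.3 and 37.7 in L + N, and ARSB, the sulfatase of dermatan and chondroitin sulfate, at 81.1, 137 and 157 and 63.5, 81.5 and 65.1. For HYAL2, H + N replicate 3 reached the lowest L − N library, and for ARSB, L + N replicate 2 did. The renin-angiotensin pathway had a median of 0.50 over 15 genes, 5 of them positive, or 0.32 without L − N replicate 2. ANPEP, an aminopeptidase of the cell surface, was at 93.5, 65.7 and 142 CPM in L − N, 34.3, 29.9 and 27.3 in L + N, 13.8, 32.3 and 22.8 in H − N, and 22.9, 55.9 and 17.0 in H + N. The lowest L − N library was above the highest of the others (interaction 2.20 ± 0.622, adjusted p = 0.26). AGTR1, the type 1 angiotensin receptor, lay at 47.3, 58.8 and 89.7 CPM in L − N, and L + N replicate 2 (53.3 CPM) and H + N replicate 1 (56.6 CPM) lay above the lowest of them. CTSA, a carboxypeptidase of the lysosome, overlaps NEURL2 and PLTP and had 1.43 ± 0.461.

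In the globo series of glycosphingolipid synthesis the median was 0.46 over 16 genes, with 4 positive, HEXA among them, and 1 negative, and 0.12 without H + N replicate 3. Synthesis of chondroitin and dermatan sulfate differed in its group. The median was 0.49 over 17 genes, and L − N was apart in 3, L + N in 6, and H − N and H + N in 4 each, with a median of 0.23 without H + N replicate 3. DSE, an epimerase that makes dermatan sulfate, lay at 52.0, 57.3 and 58.0 CPM in L − N, 46.6, 51.7 and 47.3 in L + N, 41.0, 50.6 and 50.8 in H − N and 65.5, 46.8 and 78.2 in H + N. H + N was the group apart, through replicates 1 and 3. CHST3, a chondroitin sulfotransferase, was lowest in L + N (51.5, 52.3 and 60.9 CPM, against 70.5, 64.1 and 74.7 in L − N), with an interaction of 0.52 ± 0.203, and CHST11 had 0.88 ± 0.357.

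Complement genes and antigen presentation, expressed in macrophages among other cells, had more positive than negative genes. The complement and coagulation pathway had 13 positive and 2 negative genes of 64 (20.3% and 3.1%, beside 7.48% and 5.33% of all genes). Its median of 0.19 was 0.40 without H − N replicate 3 and 0.12 without H + N replicate 2. C1QB, a chain of the complement component C1q, was at 269.6, 633 and 670.4 CPM in L − N, 381, 323 and 262 in L + N, 196, 215 and 144 in H − N, and 325, 330.0 and 259 in H + N. Its low group was H − N, and NCG on the high-fiber diet was followed by values that did not overlap with H − N (interaction 1.42 ± 0.421, adjusted p = 0.27). C1QA and VSIG4, a complement receptor of macrophages, had 1.54 ± 0.452 and 2.09 ± 0.627. Of 55 antigen presentation genes 9 were positive and 0 negative (16.4% and 0%). Their median of 0.082 was −0.050 when L − N replicate 2 and 0.27 when H − N replicate 3 was left out. SLA-DRA, a chain of the class II complex, lay at 602, 1082 and 1026 CPM in L − N and at 523, 540.4 and 603 and 770.0, 744 and 668 in H − N and H + N. Its L − N replicate 1 lay inside the ranges of L + N and H − N and below H + N. SLA-DMB, which loads peptides on class II, had 1.06 ± 0.357 and overlaps BRD2.

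Focal adhesion genes join cells to matrix through integrins and actin. Of 179 genes, 35 were positive and 4 negative (19.6% and 2.23%), with a median of 0.20. L − N was apart in 92 (51.4%, beside 44.3% of all genes). VCL and MYL9 led the list. The library medians were 0.078, 0.10 and 0.12 in L − N, −0.077, −0.068 and −0.02 in L + N, −0.15, −0.04 and −0.028 in H − N, and −0.026, −0.055 and 0.081 in H + N. All 3 L − N libraries lay near one another here, replicate 1 included, and H + N replicate 3 overlapped with them. Without H + N replicate 3 the median was 0.12. ECM-receptor interaction, the neighboring pathway of matrix proteins and their receptors, had 10 positive and 4 negative genes of 74. These are 13.5% and 5.41%, beside 7.48% and 5.33% of all genes. The median of the pathway was −0.0043. That median had no stable sign, at −0.14 without H + N replicate 3 and 0.22 without H − N replicate 3. ITGB8, an integrin chain that activates latent transforming growth factor beta, was the leading negative gene, at 23.7, 24.2 and 21.6 CPM in L − N, 77.8, 115 and 81.3 in L + N, 31.1, 50.3 and 82.8 in H − N, and 66.2, 60.4 and 44.9 in H + N. NCG raised ITGB8 on the low-fiber diet (log2 1.98, adjusted p = 0.0082), its value on the high-fiber diet was 0.064 (adjusted p = 0.97), and the interaction was −1.91 ± 0.421 (adjusted p = 0.25). ITGA6 and NPNT, an integrin chain and an integrin ligand of basement membranes, had −0.57 ± 0.241 and −1.42 ± 0.626 (−0.36 for ITGA6 without H − N replicate 3 and −2.41 for NPNT without L − N replicate 1), and L − N replicate 1 of NPNT (196 CPM) lay far above the other L − N libraries.

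**Figure D5:**
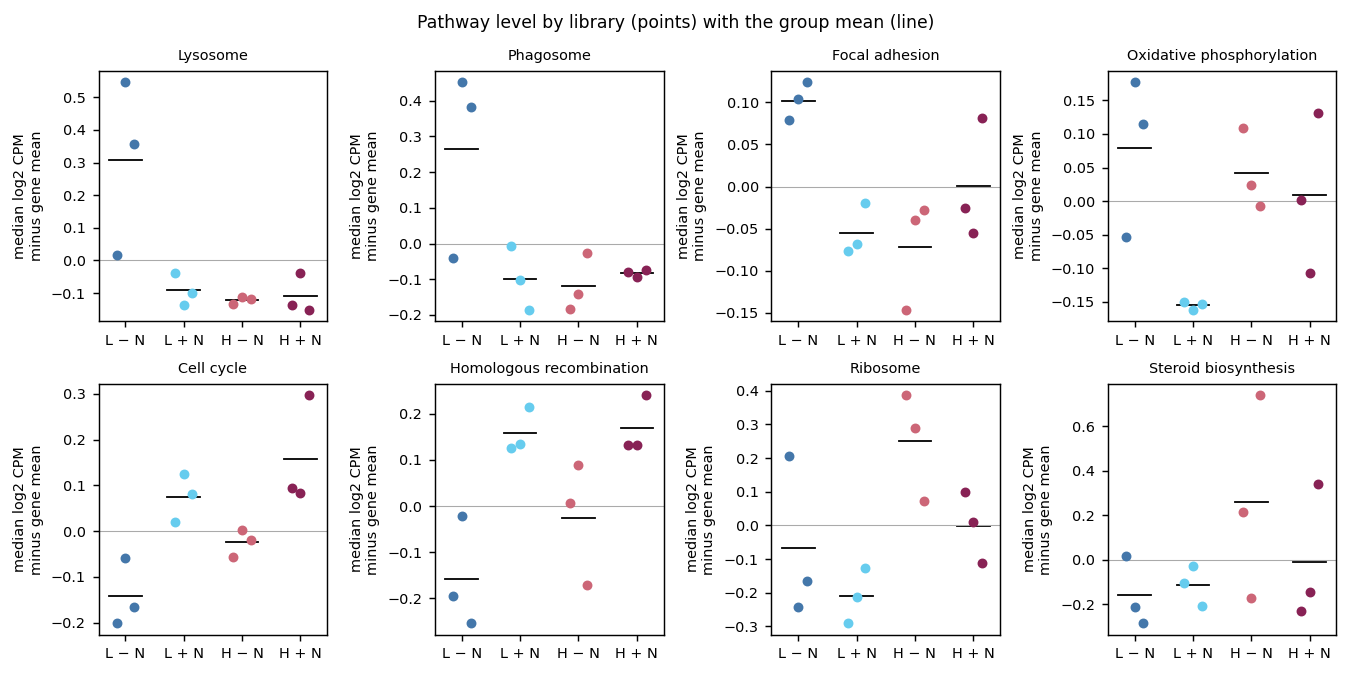
Median over the genes of 8 pathways of log2 CPM minus the mean of the gene (vertical axis) in each library, by diet group (horizontal axis), with points for libraries and a line for the group mean. Lysosome and phagosome are high in L − N replicates 2 and 3, oxidative phosphorylation is low in all 3 L + N libraries, and steroid biosynthesis is high in H − N replicate 3.

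Oxidative phosphorylation departed in another group. Of 123 genes, 20 were positive and 0 negative (16.3% and 0%, beside 7.48% and 5.33% of all genes), with a median of 0.23. L + N was apart in 65 (52.8%, beside 22.5% of all genes) and L − N in 41 (33.3%, beside 44.3%). NCG on low fiber had a median of −0.27, fiber alone −0.036, and both together −0.066. The library medians were −0.054, 0.18 and 0.11 in L − N, −0.15, −0.16 and −0.15 in L + N, 0.11, 0.023 and −0.0066 in H − N, and 0.0019, −0.11 and 0.13 in H + N. The 3 L + N libraries were lowest of the 12, and the median interaction was 0.14 without H + N replicate 3. Only 1 gene of the pathway passed the thresholds for NCG on low fiber, beside 3.99% of all genes.

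The pathway of KEGG joins the mitochondrial respiratory chain with the vacuolar ATPase, and these parted. Complex I subunits had a median interaction of 0.26 with L + N apart in 27 of 39 genes, ATP synthase subunits 0.23 with 13 of 15, and complex IV subunits 0.32 with 9 of 12. Vacuolar ATPase subunits had 0.49 with L − N apart in 18 of 22. The lysosome pathway lists subunits of the same complex, so its value for them is no separate observation. The positive genes at an unadjusted p under 0.05 parted too. They were 9 of the 22 vacuolar ATPase subunits (40.9%), beside 7.48% of all genes. The others were 8 of 39 in complex I (20.5%), 1 of 3 in complex II and 2 of 15 in ATP synthase (13.3%). Complex III had 0 of 2 and complex IV 0 of 12. The split by symbol was made after the values were known. NDUFB5, a complex I subunit (chromosome 13, 117656411 to 117671515, plus strand), was at 45.3, 43.6 and 43.2 CPM in L − N, 29.2, 33.9 and 33.1 in L + N, 41.5, 39.8 and 37.9 in H − N, and 40.7, 39.7 and 41.1 in H + N. L + N was below all other libraries (interaction 0.48 ± 0.138, adjusted p = 0.26; NCG on low fiber −0.46, adjusted p = 0.018). NDUFB9 lay at 32.5, 30.5 and 27.1 CPM in L + N and at 36.1 to 53.1 elsewhere. ATP6V1F, a vacuolar ATPase subunit, lay at 32.5, 66.9 and 58.8 CPM in L − N and at 22.5 to 29.9 in the other 9 libraries.

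Other pathways with L + N most often apart were the proteasome (24 of 40 genes), protein export (12 of 23), thermogenesis (89 of 211), which shares its respiratory genes, and protein processing in the endoplasmic reticulum (61 of 153). Over all genes tested L + N was apart in 22.5%. The proteasome had a median interaction of 0.20 with 3 positive and 0 negative of 40 genes, a positive share close to the 7.48% of all genes. Protein processing had 0.16 with 6 of 153 genes in each direction (3.92% each, below the 7.48% and 5.33% of all genes). Its median was 0.025 without H + N replicate 3 and 0.26 without H − N replicate 3. Its leading gene PPP1R15A, a phosphatase subunit of the stress response, was high in L − N (81.1, 72.0 and 89.5 CPM, against 37.9 to 65.1 elsewhere) and thus did not follow the majority. FBXO6 (overlapping MAD2L2) and SEL1L, of glycoprotein quality control, had 0.60 ± 0.218 and 0.49 ± 0.186. The citrate cycle had 0.17 over 29 genes (0.099 without H + N replicate 3), with DLST (0.48 ± 0.157) and SDHC (0.32 ± 0.147) positive and SUCLG1 at 0.24 ± 0.139 (unadjusted p = 0.11).

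The median ribosome gene lay within 0.1 of additivity, although its median effect was further from 0 under both treatments. Over 120 genes the median effect of NCG was −0.18 on low and −0.24 on high fiber, and that of fiber 0.29 without and 0.22 with NCG. The median interaction was −0.076, with 8 positive and 1 negative genes (6.67% and 0.833%, beside 7.48% and 5.33% of all genes). None of the ribosome genes passed the thresholds for either single effect. The library medians were 0.21, −0.24 and −0.17 in L − N, −0.29, −0.21 and −0.13 in L + N, 0.39, 0.29 and 0.072 in H − N, and 0.10, 0.01 and −0.11 in H + N. L − N replicate 1 stood with the H − N libraries, and the median interaction was −0.23 without it and 0.013 without L − N replicate 2. Cytosolic and mitochondrial proteins differed in sign, with medians of −0.16 for the 46 large and −0.18 for the 32 small cytosolic subunit genes and 0.20 for 36 mitochondrial ones. This split by symbol was made after the values were known, and the difference was not tested. Library medians had a standard deviation within groups of 0.196 and 0.203 for the cytosolic sets and 0.061 for the mitochondrial one. Of the 8 positive genes, 7 were mitochondrial and 1 was of the small cytosolic subunit. RPL22L1 had −0.59 ± 0.226, and RPS2 and MRPL12 had −0.46 ± 0.230 and −0.47 ± 0.264 (unadjusted p = 0.072 and 0.1).

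Pathways of cell division had medians within 0.1 of 0, with single genes below additivity. DNA replication had a median of −0.049, with 0 positive and 1 negative of 34 genes (0% and 2.94%, beside 7.48% and 5.33% of all genes). Its medians were 0.21 for NCG on low fiber and 0.20 for fiber without NCG. The median of their sum over genes was 0.44, and that of H + N against L − N was 0.42. The median interaction was −0.21 once H + N replicate 3 was left out and 0.013 once L − N replicate 3 was. The cell cycle pathway had −0.069 over 118 genes, with 6 positive and 10 negative (5.08% and 8.47%). Its median was −0.12 when L − N replicate 2 was left out and −0.029 when L − N replicate 1 was. CCNB3, a cyclin of meiosis and mitosis, was at 2.61, 4.14 and 2.55 CPM in L − N, 7.52, 8.501 and 11.4 in L + N, 7.88, 6.80 and 8.001 in H − N, and 7.18, 9.02 and 10.1 in H + N. L − N was below all other libraries (interaction −1.34 ± 0.364, adjusted p = 0.26). DNA2, POLD1 and RFC5, of replication, had −1.01 ± 0.460, −0.61 ± 0.411 and −0.35 ± 0.232, of which only DNA2 was under an unadjusted p of 0.05 (0.049).

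Homologous recombination (−0.18 over 39 genes) and the Fanconi anemia pathway (−0.18 over 48) repair breaks and crosslinks of DNA. Recombination had 0 positive and 2 negative genes (5.13% negative, beside 5.33% of all genes). The Fanconi pathway, chosen for its low median, had 0 positive and 6 negative (12.5%). The recombination median was −0.098 without L − N replicate 3. NCG alone had the larger median ( 0.36 on low fiber for recombination, against 0.11 for fiber alone), and the H + N and L + N libraries overlapped. BRCA1, a repair factor (chromosome 12, 19788087 to 19854515, plus strand, overlapping NBR1), was at 11.14, 14.7 and 10.8 CPM in L − N, 26.5, 35.5 and 37.9 in L + N, 16.8, 21.4 and 21.8 in H − N, and 25.2, 29.7 and 32.2 in H + N. All 3 groups lay above L − N, and L + N and H + N overlapped (interaction −0.91 ± 0.264, adjusted p = 0.26). ATM and ATR, the kinases that signal DNA damage, had −0.59 ± 0.1998 and −0.80 ± 0.284, and NCG on low fiber raised both (log2 1.11 and 1.44, adjusted p = 0.0082 and 0.0082). APITD1, a subunit of the Fanconi complex, had −0.93 ± 0.294, and PALB2 −0.34 ± 0.186 (unadjusted p = 0.098).

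PI3K-Akt signaling, which carries signals of growth factors and matrix into cell growth, had 29 positive and 11 negative genes of 289 (10.03% and 3.81%) and a median of 0.13, or 0.073 with upper-quartile scaling, 0.20 once H − N replicate 3 was left out and 0.057 once L − N replicate 2 was. L − N was apart in 135 of its genes (46.7%), close to the share over all genes. MAP2K1, the kinase MEK1 (overlapping SNAPC5), was at 26.5, 31.1 and 28.2 CPM in L − N, 20.1, 20.5 and 20.3 in L + N, 23.3, 22.5 and 24.8 in H − N, and 26.4, 24.3 and 27.7 in H + N. L + N was the low group (interaction 0.64 ± 0.161, adjusted p = 0.25). VEGFC, a growth factor of lymphatic vessels (chromosome 15, 39037764 to 39136234, minus strand), was at 17.6, 21.1 and 27.9 CPM in L − N, 17.0, 16.4 and 17.0 in L + N, 14.2, 13.7 and 14.2 in H − N, and 25.4, 17.8 and 23.5 in H + N. NCG was followed by lower values on low fiber and higher values on high fiber, without overlap in either pair (interaction 1.07 ± 0.263, adjusted p = 0.25). Of the 18 genes of this pathway that the study's text names, chosen there on these samples, 2 were positive (DDIT4 and TLR2) and 5 negative (BRCA1, ITGB8, MYB, FGFR3 and NTRK2) at an unadjusted p under 0.05, and their median interaction was −0.52. MYB, a transcription factor of proliferating cells, was at 7.51, 4.33 and 7.93 CPM in L − N, 14.3, 15.7 and 13.3 in L + N, 11.4, 12.4 and 17.5 in H − N, and 12.1, 16.9 and 11.5 in H + N. TLR2, a receptor for bacterial lipopeptides, was at 34.3, 64.7 and 78.9 CPM in L − N, 34.6, 29.2 and 19.2 in L + N, 15.5, 21.5 and 19.2 in H − N, and 29.7, 23.9 and 17.7 in H + N. MYB was low in all 3 L − N libraries and TLR2 high in L − N replicates 2 and 3, with interactions of −1.15 ± 0.370 and 1.44 ± 0.441.

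A further 6 named pathways, chosen from the study or from earlier results of these data, had medians within 0.1 of 0. Single libraries moved all of them. Over all genes, 7.48% were positive and 5.33% negative at an unadjusted p under 0.05. GnRH secretion had 0.072 (9 positive, 2 negative of 58, 15.5% and 3.45%). Oocyte meiosis had 0.065 (13 and 8 of 103, 12.6% and 7.77%) and p53 signaling 0.061 (9 and 5 of 67, 13.4% and 7.46%). Cytokine receptors had 0.046 (16 and 10 of 195, 8.21% and 5.13%). Glutathione metabolism had 0.011 (4 and 1 of 45, 8.89% and 2.22%) and lysine degradation −0.066 (3 and 2 of 57, 5.26% and 3.51%). Without H − N replicate 3 the medians were 0.19 for GnRH secretion, 0.15 for p53 signaling and 0.13 for cytokine receptors. Those of p53 and cytokine receptors were −0.077 and −0.091 once L − N replicate 2 was left out. Glutathione metabolism ranged from −0.0026 without L + N replicate 1 to 0.16 without H − N replicate 1, oocyte meiosis fell to 0.018 without H + N replicate 3, and lysine degradation was −0.014 without H − N replicate 2. THBS1, a matrix glycoprotein and target of p53, was at 3106, 1401 and 2406 CPM in L − N, 815, 1516 and 887 in L + N, 267, 1036 and 607 in H − N, and 1399.7, 980.2 and 988 in H + N. H − N replicate 1 was lowest, and L − N and L + N overlapped (interaction 1.92 ± 0.628). IL10RA, the receptor of interleukin 10, had 1.26 ± 0.306, BMP2, a bone morphogenetic protein, 0.99 ± 0.273, and CSF1R, the receptor that maintains macrophages, 1.34 ± 0.425. GPX3, the secreted glutathione peroxidase, was at 64.4, 47.0 and 29.8 CPM in L − N, 7.86, 7.92 and 6.74 in L + N, 8.65, 16.0 and 9.17 in H − N, and 3.36, 15.5 and 3.49 in H + N. It fell with NCG on low fiber (log2 −2.65, adjusted p = 0.017) and had an interaction of 2.06 ± 0.749, or 0.92 without H + N replicate 2. GGT1, which cleaves glutathione, had 1.55 ± 0.507, or 0.97 without L − N replicate 2. Of GnRH and meiosis genes, ITPR1 and YWHAH had 0.60 ± 0.194 and 0.93 ± 0.244, and CAMK2G (overlapping PLAU) and the p53 pathway genes SIAH1 and BCL2L1 0.63 ± 0.187, 0.57 ± 0.170 and 0.57 ± 0.170.

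Steroid and pantothenate pathways, among the lowest medians, held genes that were high in H − N replicate 3. Steroid biosynthesis, the branch that makes cholesterol, had −0.40 over 19 genes, with 1 gene in each direction at an unadjusted p under 0.05, and H − N was apart in 11. The library medians were 0.016, −0.21 and −0.29 in L − N, −0.10, −0.028 and −0.21 in L + N, 0.22, −0.17 and 0.74 in H − N, and −0.23, −0.14 and 0.34 in H + N. H − N replicate 3 was the highest of all, the other H − N libraries overlapped with the rest, and without it the median was −0.087. CYP24A1, which inactivates vitamin D, was at 0.955, 12.8 and 3.36 CPM in L − N, 3.11, 28.4 and 2.55 in L + N, 2.80, 0.208 and 56.3 in H − N, and 0.989, 0.761 and 0.920 in H + N. H − N replicate 3 and L + N replicate 2, its highest libraries, were also highest in neutrophil markers. SC5D, an enzyme of cholesterol synthesis, had −0.90 ± 0.655 (unadjusted p = 0.2), or −0.28 without H − N replicate 3. In the pantothenate pathway (−0.21 over 19 genes), VNN2, a pantetheinase, was at 77.2, 45.2 and 56.6 CPM in L − N, 87.8, 251 and 84.8 in L + N, 115, 26.2 and 1765 in H − N, and 52.1, 19.4 and 97.4 in H + N. Its interaction was −4.74 ± 1.65 and that of VNN1 −3.73 ± 1.39. Without H − N replicate 3 these were −1.57 and −1.09, and that of CYP24A1 was −1.79 in place of −5.45. PANK4 had −0.60 ± 0.241.

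Linoleic acid metabolism (−0.46 over 17 genes, 3 negative) and alpha-linolenic acid metabolism (−0.39 over 16, 1 negative) share phospholipases. The linoleic medians by library were −0.14, −0.24 and −0.47 in L − N, 0.13, 0.16 and 0.19 in L + N, 0.23, 0.086 and 0.15 in H − N, and 0.082, −0.30 and −0.29 in H + N. The 6 libraries of L + N and H − N lay above the other 6, but H + N replicate 1 (0.082) nearly reached H − N replicate 2 (0.086). Both pathways were chosen for their low median interaction, which favors this order of the groups. The linoleic median was −0.70 without H − N replicate 3 and −0.74 without H + N replicate 2, and the alpha-linolenic median −0.22 without H + N replicate 3. PLA2G4A, the phospholipase that releases arachidonic acid (overlapping PTGS2), was at 27.3, 33.0 and 24.4 CPM in L − N, 39.0, 50.7 and 29.0 in L + N, 39.9, 32.6 and 61.5 in H − N, and 35.9, 21.9 and 29.2 in H + N, with an interaction of −1.11 ± 0.385, and PLA2G4B and PLA2G6 had −0.46 ± 0.324 and −0.40 ± 0.365 (unadjusted p = 0.18 and 0.3). The circadian pathway had −0.20 over 29 genes, or −0.043 without H − N replicate 3. RORB, a nuclear receptor of the clock, was at 28.5, 21.6 and 29.0 CPM in L − N, 62.3, 102 and 71.5 in L + N, 64.0, 59.5 and 75.5 in H − N, and 81.6, 62.9 and 102 in H + N. L − N was below all other libraries (interaction −1.27 ± 0.308, adjusted p = 0.25), and NR1D1, which overlaps THRA, and PER3 had −0.93 ± 0.419 and −0.73 ± 0.384.

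Genes tied to the nutrients themselves were read from lists of arginine and of short-chain fatty acid genes. Of 27 listed genes of arginine, urea cycle and polyamine metabolism, 24 were tested. CPS1 and OTC, the first steps of the urea cycle, and NAGS were below the count filter. Among the 24, 4 (16.7%, beside 7.48% of all genes) had a positive interaction at an unadjusted p under 0.05 and 0 a negative one, with a median of 0.11. SLC7A7, a transporter of arginine and lysine (overlapping OXA1L), was at 49.5, 58.6 and 68.5 CPM in L − N, 42.9, 29.5 and 29.1 in L + N, 28.1, 24.5 and 27.2 in H − N, and 25.8, 33.2 and 21.0 in H + N. L − N was above all other libraries (interaction 0.80 ± 0.286, adjusted p = 0.31). ASL, which releases arginine from argininosuccinate, was at 16.2, 19.9 and 19.5 CPM in L − N, 12.5, 13.3 and 10.5 in L + N, 8.60, 9.71 and 8.69 in H − N, and 9.16, 10.5 and 7.97 in H + N, again with L − N highest (0.65 ± 0.244). GATM and OAT, which make guanidinoacetate and interconvert ornithine, had 0.98 ± 0.402 and 0.57 ± 0.248. The pathways of arginine biosynthesis (−0.076, 1 positive and 2 negative of 16) and of arginine and proline metabolism (0.082, 2 and 1 of 42) took either sign. The first was −0.23 without H − N replicate 1 and 0.015 without H − N replicate 3, and the second −0.11 when H + N replicate 3 and 0.13 when L − N replicate 3 was left out. MAOA had 0.63 ± 0.260 and CNDP2 0.39 ± 0.256 (unadjusted p = 0.15), GPT2 had −1.05 ± 0.435, and GPT and NOS1 −0.87 ± 0.476 and −1.24 ± 0.785 (unadjusted p = 0.095 and 0.14). Of 15 tested genes that sense or transport short-chain fatty acids, 0 had an unadjusted p under 0.05 (median 0.02). Butanoate metabolism also had 0 of 20, with a median of 0.12 that was 0.013 without H + N replicate 2 and 0.26 without H + N replicate 3, with OXCT1, HADH and ABAT at 0.38 ± 0.191, 0.35 ± 0.184 and 0.79 ± 0.558 (unadjusted p = 0.074, 0.079 and 0.18).

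For some genes the NCG libraries lay on opposite sides of their controls on the 2 diets. For 55 genes (0.358%) all L + N libraries were below all L − N libraries and all H + N libraries above all H − N libraries, and for 39 (0.254%) the reverse held. Genes in this and the next paragraph were picked after their values were seen. CSPG4, a proteoglycan of pericytes, was at 55.3, 33.6 and 31.0 CPM in L − N, 24.2, 21.9 and 19.4 in L + N, 20.7, 17.5 and 20.1 in H − N, and 42.6, 28.8 and 33.8 in H + N. H − N had the lowest mean and overlapped with L + N (interaction 1.72 ± 0.314, adjusted p = 0.2). CDH1, the E-cadherin of epithelial junctions, was at 451, 468 and 418 CPM in L − N, 526, 532 and 527 in L + N, 726, 612 and 1038 in H − N, and 429, 515 and 469 in H + N. It crossed the other way with H − N highest (−0.995 ± 0.242, adjusted p = 0.25), and CGN, cingulin of tight junctions, lay at 53.2, 44.2 and 54.0 CPM in H − N against 23.6 to 40.2 elsewhere. H − N replicate 3, the highest library of CDH1 and CGN, was also highest in the epithelial markers.

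Genes in which H + N stood apart were the fewest, with 19 positive and 46 negative at an unadjusted p under 0.05. Among the positive, ABHD3, a phospholipase, was at 18.1, 21.3 and 18.3 CPM in L − N, 18.1, 15.9 and 15.7 in L + N, 14.97, 15.8 and 15.2 in H − N, and 23.0, 19.0 and 21.3 in H + N. H + N overlapped with L − N (interaction 0.68 ± 0.193, adjusted p = 0.26). AMOTL1, an angiomotin-like protein of cell junctions, was at 56.6, 57.2 and 66.4 CPM in L − N, 46.0, 49.1 and 51.3 in L + N, 49.9, 53.7 and 42.8 in H − N, and 68.6, 53.9 and 76.0 in H + N (0.74 ± 0.2001), also with overlap. Among the negative, FAM83F was at 17.3, 23.7 and 13.8 CPM in L − N, 17.0, 19.8 and 16.5 in L + N, 21.7, 16.0 and 21.9 in H − N, and 11.14, 9.89 and 10.7 in H + N. Its H + N libraries were below the other 9, with an interaction of −0.87 ± 0.292 (adjusted p = 0.29). S100A9 and LTF, products of neutrophils, were also counted there, through H − N replicate 3 and L + N replicate 2.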

How the data were processed

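Poly(A) RNA of sow endometrium was sequenced as 12 libraries, 3 per diet group, in paired-end mode on an Illumina NovaSeq X. The authors deposited raw read counts and FPKM per gene, and the submitters' processing notes list fastp 0.22.0, HISAT2 2.1.0, HTSeq 0.9.1 and the Sscrofa11.1 build. The study's methods name a strand-specific kit, but the strand setting of the counting is not given in the sources used here, so overlapping genes are named where they occur. The deposited FPKM values followed from the counts and were not tested. Genes were kept with filterByExpr, scaled with TMM and fitted with the quasi-likelihood test of edgeR 4.0.16 (R 4.3.3), with 1 mean per group and 8 residual degrees of freedom, in place of the DESeq2 test of the study's methods, which state no interaction fit for RNA. Benjamini-Hochberg adjustment ran over all 15351 genes, and genes were called at adjusted p under 0.05 and an absolute log2 value above 1. CPM uses TMM-scaled library sizes, and values after ± are standard errors. No source used here states that each library is a separate sow, so p-values measure the spread between libraries, which may be technical.

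Members and lists were chosen with earlier results of these data known. Named genes were the 8 with the smallest p in each direction, and up to 3 per named pathway with at least 5 CPM on average, in the direction of its median. Some of these genes are not reported here. Named pathways were those of the study and of earlier results of these data, such as lysosome and phagosome. Added to them were the 6 with the highest and 6 with the lowest median among those with at least 15 tested genes. Genes outside these rules (CSPG4, CDH1, CGN, ABHD3, AMOTL1, FAM83F, S100A9, LTF, MYB, TLR2, DDIT4, FGFR3, NTRK2 and marker genes) were picked after their values were seen. Alternatives were RLE and upper-quartile scaling, no count filter, DESeq2 1.42.0, limma-voom with quality weights (limma 3.58.1), a replicate block, and leaving out each library. Scripts were tested on simulated data. Replicate numbers did not pair the samples, as given in the closing section.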

Additional observations from a re-analysis of the deposited data

Results flagged for a closer look

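For 9 named genes every L + N library lay on one side of every L − N library while every H + N library lay on the opposite side of every H − N library. The interaction, which tests the difference between the NCG effects on the 2 diets, did not pass the adjusted threshold for any of them (edgeR quasi-likelihood test, Benjamini-Hochberg). Lower with NCG on low fiber and higher on high fiber were CTHRC1 (log2 interaction 3.22, adjusted p = 0.18), TGFB1I1 (1.15, 0.18), VEGFC (1.07, 0.25), CTSB (1.82, 0.26) and CAMK2G (0.63, 0.27). Higher on low fiber and lower on high fiber were PLLP (−1.097, 0.25), SERPINA5 (−4.86, 0.25), MECOM, a zinc finger transcription factor (−0.84, 0.29), and SETDB1, a histone methyltransferase that overlaps CERS2 (−0.39, 0.31). The fitted value of SERPINA5 and its crossing on low fiber both rest on L − N libraries with at most 3 counts. For CTSB, L + N replicate 1 lay only just below L − N replicate 1. The 9 genes are among 104 named genes, picked for a small interaction p in these data, which favors such crossings. Over all 15351 genes tested, 55 (0.358%) were lower with NCG on low fiber and higher on high fiber, and 39 (0.254%) the reverse.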

How the results depend on the processing

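RLE scaling, upper-quartile scaling, no count filter and the replicate block each left 0 genes for the interaction. DESeq2 gave 184, limma-voom with quality weights 134, and leaving out L − N replicate 1 and H − N replicate 3 together, chosen after seeing the data, 347. At an unadjusted p under 0.05 limma-voom gave 1792 positive and 1603 negative genes, and without both libraries 1784 and 1272. In the order limma-voom and without both libraries, NCG on low fiber gave 1368 and 1050 genes, fiber without NCG 1196 and 1088, L − N against the others 1364 and 1204, L + N 193 and 16, and H − N 31 and 111. DESeq2 gave 25 for NCG on high fiber, 913 for fiber without NCG, 2 for fiber with NCG, 122 for L + N, 190 for H − N and 13 for H + N, and upper-quartile scaling 57 for L + N. Without both libraries the medians were 0.64 for phagosome, 0.30 for focal adhesion, 0.42 for complement, 0.20 for PI3K-Akt, −0.31 for ribosome and −0.22 for steroid biosynthesis. Complement was 0.33 with limma-voom and 0.42 over genes of at least 5 CPM, homologous recombination −0.0995 over such genes and −0.101 over genes that overlap no other, and PI3K-Akt 0.073 with upper-quartile scaling and 0.051 as a mean. Cell cycle and ribosome were −0.14 and −0.13 with upper-quartile scaling, −0.12 and −0.13 with limma-voom, and −0.13 and 0.00088 as means. The cause of these moves was not tested.

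Same-numbered libraries of different groups did not deviate together (18 pairs, correlations −0.32 to 0.28, and 3 libraries closest to their own number), so the numbers do not pair the samples. The replicate block gave 254 genes for fiber without NCG and moved no other count by more than 1.5 times.

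Leaving out 1 library at a time, gene counts ranged over 0 to 346 for interaction, 746 to 1647 for positive interaction at an unadjusted p under 0.05, 516 to 1277 for negative interaction at that p, 143 to 904 for NCG on the low-fiber diet, 0 to 1111 for fiber without NCG, 128 to 1143 for L − N against the others, 0 to 85 for L + N against the others, 0 to 189 for H − N against the others, 0 to 1 for H + N against the others. The pathway medians ranged over 0.30 to 0.59 for lysosome, 0.28 to 0.52 for phagosome, 0.12 to 0.28 for focal adhesion, 0.12 to 0.40 for complement and coagulation cascades, 0.057 to 0.20 for PI3K-Akt, −0.60 to −0.087 for steroid biosynthesis.

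Of the 33 named pathways, 22 kept the sign of their median in every setting. Among 104 named genes no interaction changed sign, 46 passed the thresholds in at least 1 setting (38 without L − N replicate 1), and a single library moved 23 by over 1.5 times. The spread within groups and 3 libraries per group limit precision, and depth was not varied.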
